A study of Arabidopsis thaliana with 2 samples.

Results

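The genes considered here encode the enzymes that build jasmonic acid in *Arabidopsis thaliana*: *LOX2*, *LOX3*, *LOX4*, *LOX6*, *AOS*, *AOC1*, *AOC2*, *AOC3*, *AOC4* and *OPR3*, 10 of the 27444 protein-coding genes in the TAIR10.1 RefSeq annotation. They were taken by locus identifier, and the set was chosen with the MBD9 summits at these genes already known, so every count at them is a description and none was tested. MBD9, named for its methyl-CpG-binding domain, works with SWR1, the complex that places the histone variant H2A.Z in nucleosomes. The data are places where MBD9 was found on the genome by chromatin immunoprecipitation and sequencing (ChIP-seq). The MBD9-3xFLAG library came from an *mbd9-3* mutant of the Col-0 ecotype that carried, as a T4 line, the *MBD9* genomic fragment with its own promoter and a 3xFLAG tag. The WT library came from Col-0 plants without a tag. Both were made with an anti-FLAG antibody from plants at 13 days after germination, which the labels give both as seedlings and as shoots. Each group had 1 library, so the values come without any check between replicates, and the depth of the libraries is unknown.

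Jasmonates are lipid hormones of wounding, defence and stamen development. In the plastid, lipoxygenases of the LOX2, LOX3, LOX4 and LOX6 type add oxygen to linolenic acid, allene oxide synthase (AOS) turns the hydroperoxide into an unstable allene oxide, and allene oxide cyclase (AOC) closes it to the ring compound OPDA. In the peroxisome the reductase OPR3 reduces OPDA, and rounds of beta-oxidation shorten the product to jasmonic acid, which JAR1 joins to isoleucine to give the form that the COI1 receptor perceives.

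The deposited list holds 13993 summits in 10348 peaks. A summit is the single base at which MACS2, the peak caller, placed a local maximum of MBD9-3xFLAG signal inside a peak called over the WT library, and 1 peak can hold several. Each summit has a score, the −log10 of its q-value, with a lowest value of 2.0, a median of 10.1 and a highest value of 197. Distances below are counted from the annotated transcription start site (TSS) along the gene, with a minus sign for bases before it.

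Summits were found within 1 kb upstream of the TSS, in the gene or within 500 bp 3′ of it at 8 of the 10 enzyme genes, and such summits were found at 30.1% of all protein-coding genes. These 8 genes held 35 summits in 16 peaks. In the gene body there were 25 summits at 7 enzyme genes, against 13.6% of all protein-coding genes with a summit there. Upstream there were 6 summits at 5 enzyme genes, against 17.3% of all genes, and 3′ of the gene there were 4 summits at 3 enzyme genes, against 7.76% of all genes. These counts outside the gene depended on low-scoring summits: with only summits at or above the median score, 2 enzyme genes had one upstream and 0 had one 3′ of the gene. A score of at least 5, or only the highest-scoring summit of each peak, left 1 enzyme gene with a 3′ summit. The shares of all protein-coding genes upstream and 3′ under these limits were not computed, so these reduced counts have no background beside them. *AOC3* and *AOC4* had no summit in any window. The summits were thus spread along the genes and did not stand only before them. The 25 summits in the gene were split between the 5′ part, with 13 before the gene's midpoint, and the 3′ part, with 12 at or after it. Of the 25, 6 lay within 500 bp of the TSS. Since these summits were known when the genes were chosen, the percentages over all genes stand beside the counts as a background only.

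**Figure D1:**
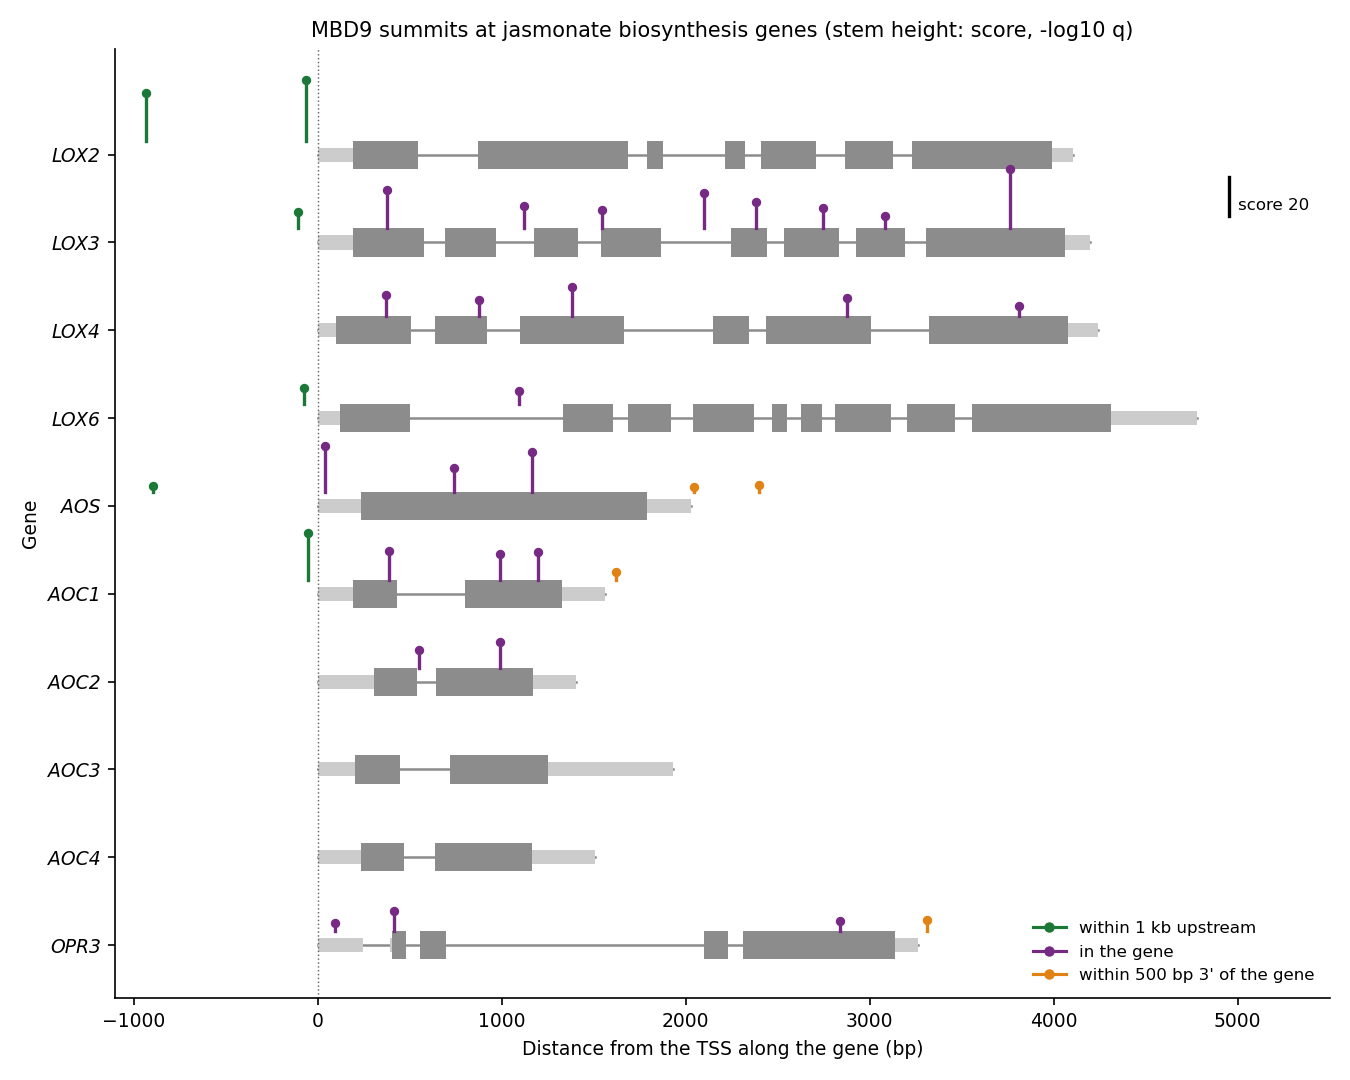
Each row is 1 enzyme gene drawn from its TSS (0 on the x axis, in bp), with coding exons as tall grey boxes, untranslated exons as low pale boxes and introns as lines. Each stem is 1 MBD9 summit, its height is the score (−log10 q, with a bar for scale), and its colour gives the window. *LOX3* carries 8 summits in the gene and *LOX4* 5, whereas the 2 summits of *LOX2* both lie upstream and *AOC3* and *AOC4* have none.

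Sequences around summits were read from TAIR10.1 on the strand of the gene. Shown first are 3 windows of 101 bases, each centred on a summit that is described further on: the highest-scoring summit at any of the enzyme genes, a *LOX3* intron summit with a G-box nearby, and an *AOS* coding-exon summit with a pair of them. Capitals mark matches to any of 6 hexamers searched for on both strands: CACGTG (G-box), CACATG (an E-box form bound by MYC factors), ACGTGG (ABRE core), TTGACC (W-box), GCCGCC (GCC box) and TGGGCC (site II). The ABRE core and the G-box overlap by 5 bases, so CCACGTG and CACGTGG hold both.
LOX2, 66 bp upstream of the TSS (chr3:16525129-16525229, plus strand): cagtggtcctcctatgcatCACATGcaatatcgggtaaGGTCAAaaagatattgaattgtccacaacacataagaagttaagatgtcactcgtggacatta
LOX3, intron 4 (chr1:5979372-5979472, plus strand): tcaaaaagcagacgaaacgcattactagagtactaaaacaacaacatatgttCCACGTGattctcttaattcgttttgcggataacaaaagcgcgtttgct
AOS, coding exon (chr5:17098382-17098482, minus strand): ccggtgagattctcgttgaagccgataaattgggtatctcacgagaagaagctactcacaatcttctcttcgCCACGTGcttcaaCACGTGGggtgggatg

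The lipoxygenase genes, which encode the first step, differed from each other in where their summits lay. *LOX2* (AT3G45140, chr3:16525245-16529352, plus strand, 7 exons) encodes the lipoxygenase that supplies much of the jasmonate of wounded leaves. It had a summit at −935 bp with a score of 24.6 and another at −66 bp with a score of 31.0, the highest of all 35. Both lay upstream and in separate peaks, and its gene body of 4108 bp held none. The next summit past its end was 10254 bp away. In the window at −66 bp printed above, the nearest hexamer match was a W-box whose closest base was 7 bp from the summit.

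*LOX3* (AT1G17420, chr1:5977323-5981521, plus strand, 8 exons) was the opposite case, with most of its 9 summits in the gene. It encodes a lipoxygenase that, with LOX4, is needed for normal stamens. The upstream summit, at −109 bp, scored 8.49. The 8 in the gene scored 19.9 at 374 bp (exon 1), 11.7 at 1119 bp (intron 2), 9.39 at 1545 bp (exon 4), 18.1 at 2099 bp (intron 4), 13.7 at 2380 bp (exon 5), 10.5 at 2745 bp (exon 6), 6.30 at 3083 bp (exon 7) and 30.3 at 3760 bp (exon 8). The strongest of them thus lay in the last exon, 438 bp before the gene's end. All but that one belonged to 1 peak whose 8 summits spanned 3192 bp from the promoter to exon 7. Neighbouring summits were 281 to 745 bp apart, with a median gap of 454.5 bp. At least 8 summits in the gene were found at 1 enzyme gene, *LOX3*, and at 0.051% of all protein-coding genes, which is 14 genes. Among genes of 4 to 5 kb, the length class of *LOX3*, 0.248% had that many.

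*LOX4* (AT1G72520, chr1:27308513-27312756, plus strand, 6 exons), the closest relative of *LOX3*, had 5 summits, all in coding exons. They scored 11.1 at 370 bp (exon 1), 8.54 at 879 bp (exon 2), 14.8 at 1384 bp (exon 3), 9.37 at 2874 bp (exon 5) and 5.21 at 3813 bp (exon 6). No summit lay within 1 kb upstream, and the nearest before the gene was 4024 bp from its TSS. The last summit, in exon 6, also lies 628 bp upstream of the neighbouring gene AT1G72530, and it was the only one of the 35 that fell in a window of another protein-coding gene. At least 5 summits in the gene were found at *LOX3* and *LOX4*, 2 of the 10 enzyme genes, and at 0.394% of all protein-coding genes. In the 4 to 5 kb class that share was 1.12%.

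The coding sequences of *LOX3* and *LOX4* were identical at 81.6% of 2744 aligned bases, whereas the other pairs among the 4 lipoxygenase genes were between 69.8% and 70.4% identical. Placed on that alignment, 4 of the 5 *LOX4* summits lay within 70 bp of a *LOX3* summit, at 69, 37, 25 and 38 bp, and the fifth, in exon 2, lay 188 bp from one. In the other direction, 4 of the 6 coding-exon summits of *LOX3* lay within 70 bp of a *LOX4* summit. The limit of 70 bp was not among the planned settings. It lies just above the largest matched distance, 69 bp, so the match nearest the 5′ end depends on it. The scores at matched places did not keep one order: near the 5′ end *LOX4* had 11.1 and *LOX3* 19.9, in the fourth exon of *LOX3* and the third of *LOX4* they were 14.8 for *LOX4* and 9.39 for *LOX3*, and in the last exon 5.21 for *LOX4* and 30.3 for *LOX3*. Every 50-base word of either gene and its windows occurs once in the genome, so reads of at least 50 bases that match exactly can be told apart between the copies. How many summits of unrelated genes would lie this close was not computed.

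**Figure D2:**
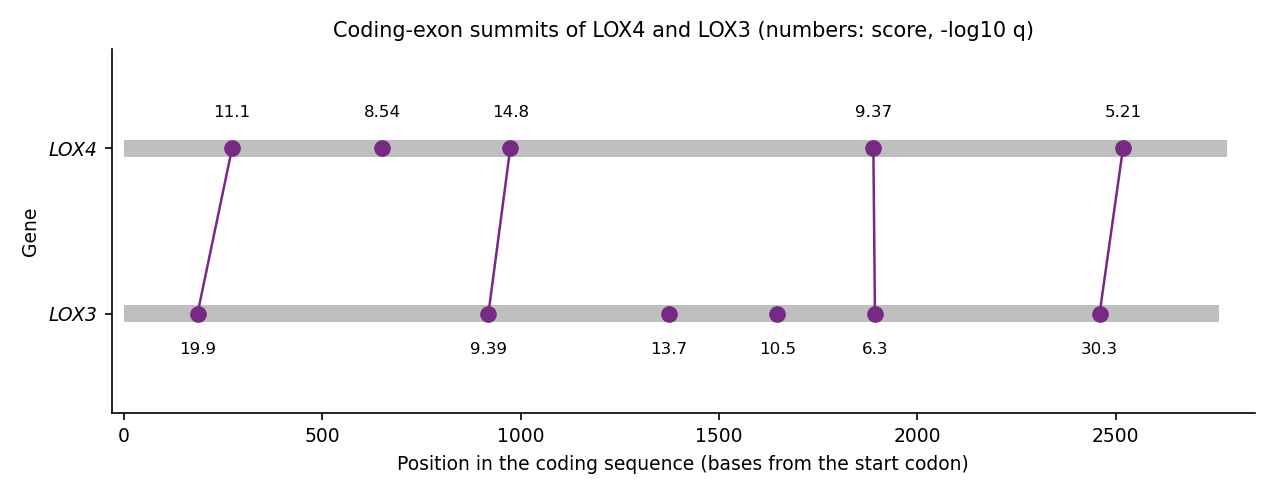
The coding sequences of *LOX4* (top) and *LOX3* (bottom) are drawn to scale in bases from the start codon, each point is a summit in a coding exon, and the number beside it is its score (−log10 q). Lines join summits that lie within 70 bp of each other on the alignment: 4 of the 5 *LOX4* summits are joined. This limit was not among the planned settings and lies just above the largest joined distance, 69 bp.

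The matched places in the last exons, and in exon 7 of *LOX3* and exon 5 of *LOX4*, show how the copies differ where both carry a summit. Capitals mark bases identical in both genes, and each run starts 15 bases before the leftmost summit and ends 15 bases after the rightmost.
LOX4, exon 6 (chr1:27312273-27312341, plus strand, score 5.21): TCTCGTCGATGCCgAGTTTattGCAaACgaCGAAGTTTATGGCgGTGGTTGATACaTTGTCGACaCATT
LOX3, exon 8 (chr1:5981068-5981136, plus strand, score 30.3): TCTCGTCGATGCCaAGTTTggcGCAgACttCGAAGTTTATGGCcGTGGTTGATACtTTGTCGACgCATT
LOX4, exon 5 (chr1:27311372-27311427, plus strand, score 9.37): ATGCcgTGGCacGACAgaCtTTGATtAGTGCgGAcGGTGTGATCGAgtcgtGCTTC
LOX3, exon 7 (chr1:5980366-5980421, plus strand, score 6.30): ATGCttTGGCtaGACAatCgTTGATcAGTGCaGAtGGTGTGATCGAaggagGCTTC
In the last exons 59 of 69 bases were identical, and the *LOX4* summit is base 54 of its run and the *LOX3* summit base 16. In the other pair 41 of 56 bases were identical, with the *LOX4* summit at base 16 and the *LOX3* summit at base 41.

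*LOX6* (AT1G67560, chr1:25319804-25324581, plus strand, 9 exons), a lipoxygenase of roots and vascular tissue, had 1 summit upstream and 1 in the gene. The upstream summit, at −75 bp, scored 8.39, and the other, in intron 1 at 1095 bp, scored 6.48. Both were below the median score of the list, and the 3682 bp from the second one to the end of this gene, the longest of the 10, held no summit.

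*AOS* (AT5G42650, chr5:17097564-17099595, minus strand) encodes the only allene oxide synthase of *Arabidopsis*, from a gene without introns. It had summits in all 3 windows, 6 in total over 2032 bp of gene and its flanks. The upstream summit, at −896 bp, scored 3.19. In the gene the scores were 23.7 at 40 bp (5′ UTR), 12.1 at 738 bp and 20.6 at 1163 bp, both in the coding exon. Past the gene's end they were 2.67 at 16 bp and 3.38 at 367 bp. The scores were therefore highest at the TSS and in the coding exon and close to the lowest of the list on either side. All but the upstream summit belonged to 1 peak, whose 5 summits spanned 2358 bp. The coding-exon window around 1163 bp, printed above, has a pair of G-boxes 23 and 35 bp from the summit, and another G-box stands directly before the TSS, 41 bp from the summit at 40 bp. Summits in all 3 windows were found at 2 of the enzyme genes, *AOS* and *AOC1*, and at 1.13% of all protein-coding genes.

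Of the 4 allene oxide cyclase genes, 3 stand in tandem on chromosome 3, in the order *AOC1*, *AOC2*, *AOC3*, over 7312 bp (chr3:9403779-9411090), all on the plus strand. The gap between *AOC1* and *AOC2* is 1330 bp and that between *AOC2* and *AOC3* 1088 bp. The summits were unevenly spread over the cluster, with 5 at *AOC1*, 2 at *AOC2* and 0 at *AOC3*. Each of the first 2 genes has a single peak, so with 1 summit per peak the counts were 1 at *AOC1*, 1 at *AOC2* and 0 at *AOC3*. *AOC1* (AT3G25760, 1560 bp, 2 exons) had a score of 24.1 at −53 bp, 14.7 at 387 bp (exon 1), 13.4 at 991 bp (exon 2), 14.5 at 1198 bp (exon 2) and 4.17 at 61 bp past its end. A single peak held all 5 and spanned 1673 bp. *AOC2* (AT3G25770, 1403 bp, 2 exons) had a score of 8.86 at 552 bp (intron 1) and 13.3 at 992 bp (exon 2), in 1 peak. The nearest summit before the *AOC2* TSS was the last one of *AOC1*, at 1270 bp, which is outside the upstream window of 1 kb. *AOC3* (AT3G25780, 1931 bp, 2 exons) had no summit in or near it: from the end of *AOC2* to 500 bp past *AOC3* there was none, and the last *AOC2* summit lay 1499 bp before the *AOC3* TSS. The fourth gene, *AOC4* (AT1G13280, chr1:4547388-4548894, plus strand, 2 exons), stands alone on chromosome 1, and its nearest summit was 3607 bp upstream with a score of 5.49.

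Only uniquely mapping reads were kept, so the share of unique sequence was computed for each gene. Of the 50-base words centred in *AOC3* and its windows, 99.3% occur once in the genome, against 98.7% for *AOC1* and 99.97% for *AOC2*. In *AOC4* every word was unique. The part of read mapping in the number of summits called at each copy was not tested. Across all 10 enzyme genes with their windows the share was 99.8%, and the 50-base word centred on each of the 35 summits occurs once. The lowest local share was at the *AOC1* summit at 991 bp, where 88.1% of the words within 100 bp were unique.

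**Figure D3:**
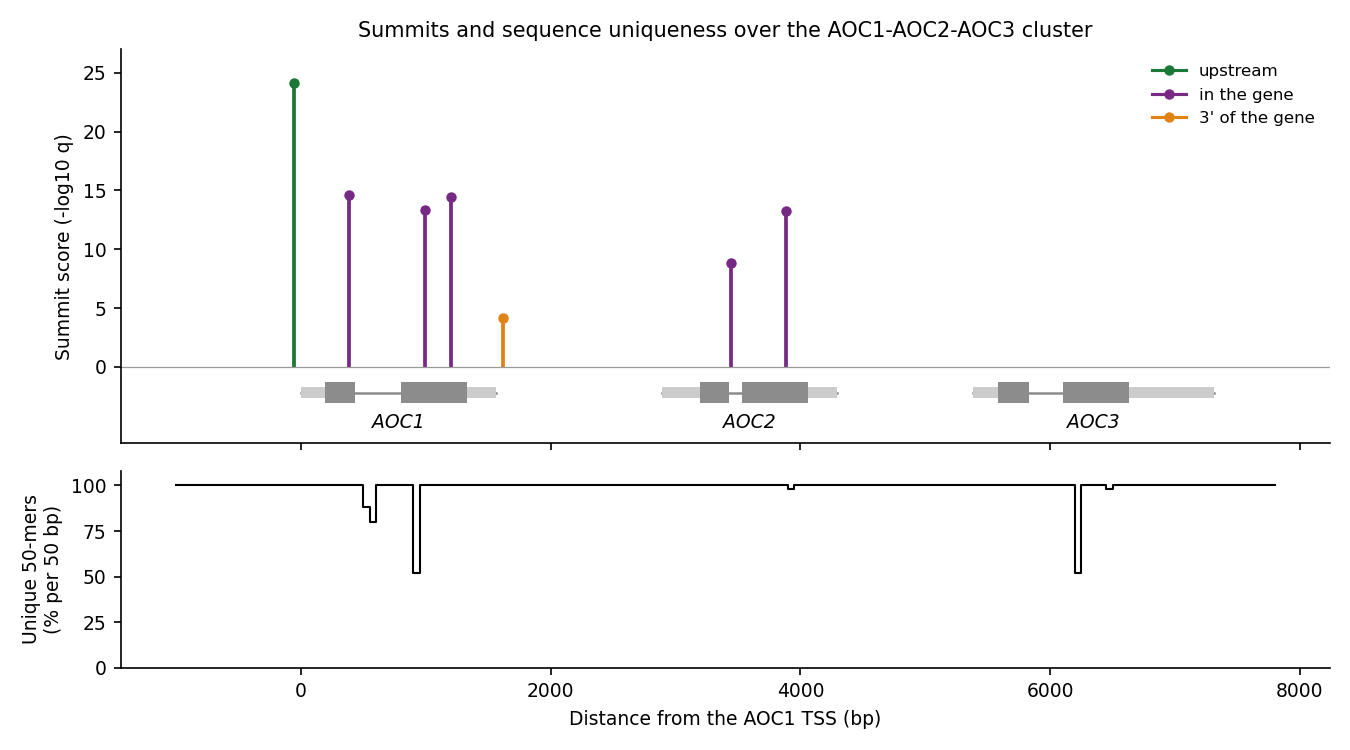
The upper panel gives the score (−log10 q) of each summit against its distance from the *AOC1* TSS in bp, with the 3 genes drawn below as in the gene maps, and the lower panel gives the percentage of 50-base words in each 50 bp that occur once in the genome. The 7 summits lie at *AOC1* and *AOC2*, and *AOC3*, where 99.3% of the words are unique, has none.

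The coding sequences of *AOC1* and *AOC2* were 90.4% identical, those of *AOC1* and *AOC3* 83.5%, and those of *AOC2* and *AOC3* 83.4%. *AOC4* was 81.4% identical to *AOC3* and 77.1% to 77.3% identical to the other cyclase genes. The *AOC2* summit in exon 2 lies 50 bp from the base that aligns with the *AOC1* summit at 1198 bp, and the 81 bases from 15 before the *AOC2* summit to 15 after the base aligned with the *AOC1* summit are printed for the 3 tandem genes, since *AOC3* holds nearly the same letters with no summit. Capitals mark bases identical in all 3.
AOC1, exon 2 (chr3:9404912-9404992, plus strand, score 14.5): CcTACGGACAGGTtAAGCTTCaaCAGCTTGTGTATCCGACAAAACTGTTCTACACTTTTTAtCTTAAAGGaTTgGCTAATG
AOC2, exon 2 (chr3:9407646-9407726, plus strand, score 13.3): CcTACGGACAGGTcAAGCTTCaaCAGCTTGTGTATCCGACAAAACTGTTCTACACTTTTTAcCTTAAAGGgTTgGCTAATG
AOC3, exon 2 (chr3:9410216-9410296, plus strand, no summit): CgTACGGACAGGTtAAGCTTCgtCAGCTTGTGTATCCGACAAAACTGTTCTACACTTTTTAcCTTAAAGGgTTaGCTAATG
In these runs 74 of 81 bases were shared by all 3 genes. The *AOC1* summit is base 66 of its run and the *AOC2* summit base 16.

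*OPR3* (AT2G06050, chr2:2359114-2362375, minus strand, 5 exons) encodes the peroxisomal reductase, whose loss makes plants male sterile. It had 3 summits in the gene and 1 past its end. The scores were 4.38 at 94 bp (5′ UTR), 10.4 at 414 bp (exon 2), 4.98 at 2840 bp (exon 5) and 5.45 at 52 bp past the end. They formed a pair at each end of the gene, 1 peak each, with 2426 bp between the pairs and no summit there or within 1 kb upstream. A G-box stands 2 bp from the summit at 94 bp. Of the 4 scores, only that in exon 2 was above the median of the list.

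Most of the enzyme genes had more than 1 summit in the gene. At least 2 in the gene were found at 6 of the 10, against 5.08% of all protein-coding genes, and at least 3 at 5 of the 10 (*LOX3*, *LOX4*, *AOS*, *AOC1* and *OPR3*), against 2.19% of all. These counts rest on peaks with several summits: with the highest-scoring summit of each peak alone, at least 2 in the gene were found at 2 enzyme genes (*LOX3* and *LOX4*), against 2.18% of all protein-coding genes, and at least 3 at 1 (*LOX4*), against 0.313%. With 1 summit per peak no enzyme gene had 5. With only summits at or above the median score, at least 3 were found at 3 enzyme genes, against 0.386% of all. Gene length differs between these sets, since the lipoxygenase genes are 4108 to 4778 bp long and the median protein-coding gene 2078 bp. Within length classes, at least 3 summits were found in 2.02% of genes of 1 to 2 kb, 3.18% of those of 2 to 3 kb, 2.76% of those of 3 to 4 kb and 3.17% of those of 4 to 5 kb. Of the 16 peaks at enzyme genes, 7 (43.8%) had more than 1 summit, against 23.4% of all 10348 peaks.

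The 25 summits in the gene stood mostly in coding sequence. Coding exons held 19 of them (76%), against 41.3% of all 6092 in-gene summits, and introns held 4 (16%), against 15.3%. The 5′ UTR held 2 (8%), against 25.4%, and the 3′ UTR 0, against 13.5%. Of the 19, 6 were in *LOX3* and 5 in *LOX4*. Coding exons make up 57.8% of the bases of the 10 genes, and that share was not computed for all genes. The GC contents that follow were not matched for the class of the summits. Bases within 50 bp of the in-gene summits of the enzyme genes had a GC content of 45.9% ± 6.23 (SD, n = 25 summits), against 41.0% ± 8.69 for all in-gene summits and 39.7% ± 7.41 for windows at the midpoints of all protein-coding genes.

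The scores were compared within each window. The in-gene summits of the enzyme genes had a median score of 11.7 (lowest 4.38, highest 30.3), against 7.675 for all in-gene summits. Upstream, the median was 16.3 (lowest 3.19, highest 31.0), against 11.3 for all upstream summits. No upstream score lay near that median of 16.3. The scores were 24.1 to 31.0 at *LOX2* and *AOC1*, and 3.19 to 8.49 at *LOX3*, *LOX6* and *AOS*. The 4 summits past the genes' ends scored 2.67 to 5.45, all of them below the lower quartile of 5.47 for all summits in that window, where the median was 9.75. Over all windows, 19 of the 35 were at or above the median of the list.

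**Figure D4:**
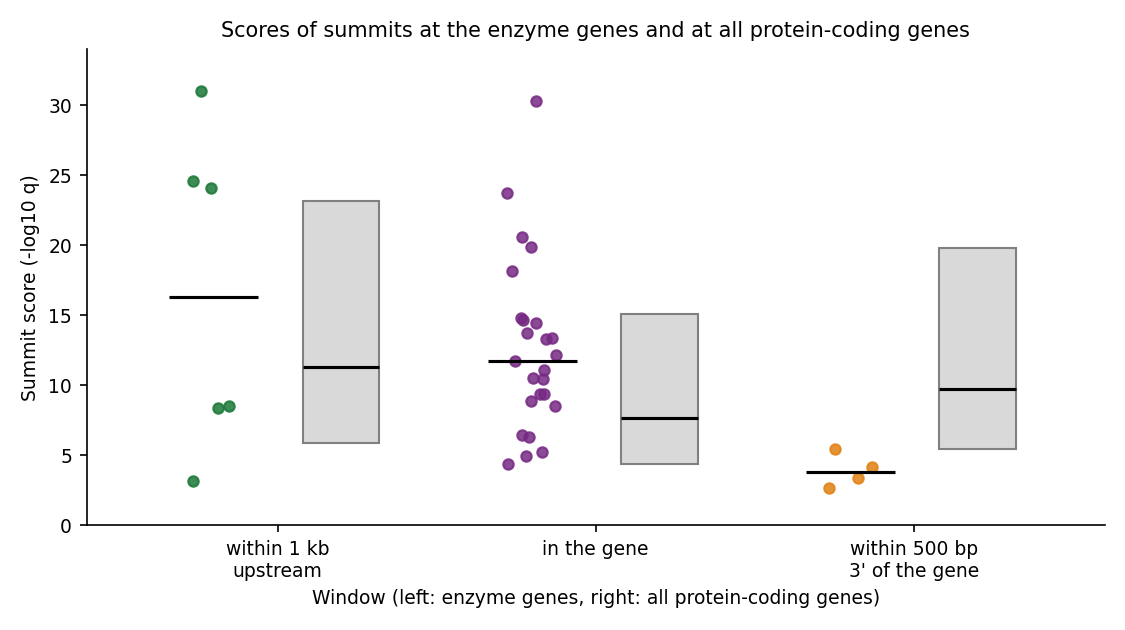
Points on the left of each window are the summits of the enzyme genes with a line at their median, and the box on the right spans the lower to the upper quartile of all summits in that window of protein-coding genes, with a line at the median. The y axis is the score (−log10 q). The median in the gene is 11.7 for the enzyme genes and 7.675 for all genes, and the 4 points 3′ of the gene lie below the box.

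The hexamers were counted within 50 bp of each summit. A G-box, the site of MYC2 and other bHLH and bZIP factors, was found at 4 of the 35 summits (11.4%), against 8.97% of all summits. It was found in 3.39% of promoter windows of the same length, centred 100 bp before the TSS of every protein-coding gene. In windows at gene midpoints the share was 1.17%. All 4 summits were in the gene, so they are 16% of the 25 in-gene summits, against 6.19% of all in-gene summits. With 1 summit per peak, 1 summit with a G-box was left. The ABRE core was also found at 4 (11.4%), against 8.33% of all summits, 4.23% of promoter windows and 2.04% of midpoint windows. The E-box form CACATG was found at 4 (11.4%), against 8.60% of all summits, 4.96% of promoter windows and 4.50% of midpoint windows. The W-box, bound by WRKY factors, was found at 5 (14.3%), against 7.22%, 5.68% and 4.08% in the same order. The GCC box was found at 1 (2.86%), against 2.57%, 0.732% and 1.62%, and site II at 1 (2.86%), against 4.27%, 8.15% and 1.09%. With 35 summits, 1 summit more or fewer moves a share by 2.86 percentage points, so the members' shares lie within a few summits of those over all summits. At least 1 of the 6 hexamers was found at 15 of the 35. The same share over all summits was not computed, so this count has no background beside it.

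Over the whole windows of the 10 genes there were 10 G-boxes, in 6 genes and 9 of them in the gene body. Within 50 bp of a summit stood 5 of these: 1 in *LOX3*, 3 in *AOS* and 1 in *OPR3*. The other 5 were in *LOX4* (127 and 553 bp from a summit), *AOC2* (427 bp), *OPR3* (437 bp) and *AOC3*, which had no summit. *LOX2* and *AOC1*, with the highest-scoring upstream summits of the set, had no G-box in any window.

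The steps before and after these enzymes were looked at through a list of 39 further jasmonate pathway genes, chosen by function with earlier results of these data known. A summit in the gene was found at 17 of them (43.6%) and at least 3 at 9 (23.1%), a summit upstream at 11 (28.2%) and a summit 3′ of the gene at 7 (17.9%). In each window the share was thus between that of the 10 enzyme genes and that of all protein-coding genes. The count of 9 rests on peaks with several summits. With 1 summit per peak, at least 3 in the gene were found at 2 of the 39, against 0.313% of all protein-coding genes. With only summits at or above the median score they were found at 3 of the 39, against 0.386%.

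**Figure D5:**
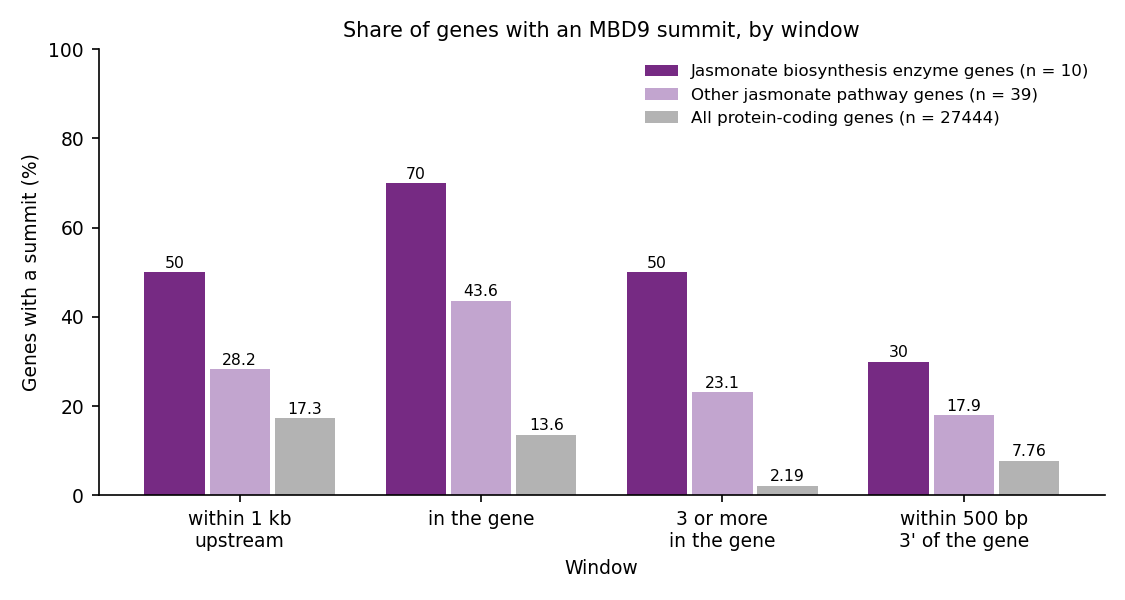
Bars give the percentage of genes with a summit in each window for the 10 enzyme genes (left bar), the 39 further pathway genes (middle) and all 27444 protein-coding genes (right). In the gene these are 7 of 10, 43.6% and 13.6%, and for at least 3 summits in the gene 5 of 10, 23.1% and 2.19%. With 1 summit per peak, at least 3 remain at 1 of the 10 enzyme genes, 2 of the 39 pathway genes and 0.313% of all genes.

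Of 8 genes of precursor supply, 2 (25%) had summits in the gene, against 13.6% of all protein-coding genes. *FAD3*, a desaturase that makes linolenic acid in the endoplasmic reticulum, had 3 with scores of 28.0 to 72.7. AT1G02660, annotated as an alpha/beta-hydrolase, had 6 with scores of 4.66 to 18.7. Among 5 other oxylipin enzymes, *LOX5* had 1 (score 2.47), *HPL1*, annotated as a hydroperoxide lyase gene, had 1 (score 4.37), and *OPR1*, a reductase related to OPR3, had 3 (scores 9.44 to 14.4). Of the 3 in *OPR1*, that at 1317 bp also lies upstream of *OPR2*, whose annotated gene overlaps that of *OPR1*.

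Of 8 genes of export, import and beta-oxidation, 3 (37.5%) had summits in the gene, against 13.6% of all protein-coding genes. *OPCL1*, the ligase that activates the reduced OPDA for beta-oxidation, had 3 with scores of 2.16 to 51.1. *ACX1*, an acyl-CoA oxidase, had 2 with scores of 5.77 and 6.39, and the thiolase gene *PKT3* had 1 with a score of 5.90. These 3 act after OPR3 in the peroxisome.

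Of 12 genes of conjugation and turnover, 8 (66.7%) had summits in the gene, against 13.6% of all protein-coding genes. Among the other oxylipin enzymes it was 3 of 5 (60%). The 8 genes held 29 summits in the gene. *ILL6*, an amidohydrolase gene whose product cleaves the isoleucine conjugate, had 10 of the 29, which is more than *LOX3* had. Their scores were 2.99 to 26.8. With a score of at least 5, *ILL6* no longer had at least 8 summits in the gene, whereas *LOX3* still did. That many were then found at 0.0146% of all protein-coding genes. *JAR1*, which makes the isoleucine conjugate, had 4 with scores of 4.53 to 8.81. The cytochrome P450 genes that oxidise it each had at least 1: *CYP94B1* had 1 (score 53.4), *CYP94B3* had 2 (scores 25.3 and 32.0) and *CYP94C1* had 2 (scores 14.5 and 15.5). AT5G05600 and AT2G38240, both annotated as 2-oxoglutarate and Fe(II)-dependent oxygenases, had 5 (scores 5.52 to 18.1) and 4 (scores 3.26 to 26.2). *ST2A*, a sulfotransferase gene, had 1 (score 9.74). Of 6 genes of perception and response, *MYC2*, the bHLH factor that drives much of the jasmonate response, had 3 with scores of 9.03 to 27.7, and the other 5, the receptor gene *COI1* among them, had none in the gene. That is 1 of 6 genes (16.7%), near the 13.6% of all protein-coding genes.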

How the data were processed

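Anti-FLAG ChIP-seq of 1 MBD9-3xFLAG and 1 WT library was used. According to the study's methods, the authors fixed tissue with EGS and then formaldehyde, aligned reads to TAIR10 with Bowtie, kept only uniquely mapping reads, removed duplicates with SAMtools and called peaks of MBD9-3xFLAG over WT with MACS2 2.1.1 at a q-value of 0.01. The deposited list gives each summit as 1 base with a score, the −log10 q-value set by the authors' caller. It holds no counts, so depth is unknown and no interval was computed for any count of summits or genes. It also holds no expression values, so the labelled tissue could not be checked against marker genes. A score grows with read depth as well as with enrichment, and a q-value per summit is no measure of replicate error.

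Summits were placed with Python 3.11.15 on the RefSeq TAIR10.1 annotation, whose chromosome lengths contain every summit. Windows reached 1000 bp upstream of the TSS and 500 bp past the gene. Exon classes came from the transcript with the longest coding sequence. Coding sequences were aligned globally with Biopython 1.88 (match 2, mismatch -3, gap opening -5, extension -2). Placement and word counting were tested on simulated data. Named were all 10 enzyme genes, every pathway gene with a summit in the gene, and genes whose windows hold a summit of an enzyme gene. The members and lists were chosen with earlier results of these data known. Alternatives changed the windows, the score limit, the summits used per peak, the motif distance and the word length.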

Additional observations from a re-analysis of the deposited data

How the results depend on the processing

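Of 50 alternative values for 9 results, 33 were counts within 1.5 times the reported count. The other 17 moved further or, for the share of unique words, fell outside a binomial (Wilson) interval of the reported share. That interval treats overlapping words as independent, so it is narrow. The number of enzyme genes with a summit in the gene stayed between 6 and 8 throughout. Of all protein-coding genes, 13.6% had a summit in the gene with all summits and 10.8% with a score of at least 5. That share was 6.74% at or above the median score and 12.1% with 1 summit per peak. For summits upstream and 3′ of the gene, the share of all genes was not computed under the alternatives. With only summits at or above the median score, which leaves fewer summits by construction, the enzyme genes had 19 summits in place of 35, 2 genes with an upstream summit in place of 5, 0 with a 3′ summit in place of 3, and 3 genes with at least 3 summits in the gene in place of 5, and the pathway list had 11 genes with a summit in the gene and 7 with one upstream. A score of at least 5 left 1 enzyme gene with a 3′ summit. With 1 summit per peak, 16 summits remained at the enzyme genes, 1 gene had a 3′ summit, 1 had at least 3 summits in the gene and 1 summit had a G-box within 50 bp. The alternatives for at least 3 summits in the gene were chosen after seeing the data. A search within 25 bp found a G-box at 2 summits. An upstream window of 500 bp gave 5 pathway genes and one of 2 kb gave 19, in place of 11. The share of unique words at the enzyme genes was 99.57% for 36 bases, and 100% for 75 and 100 bases, in place of 99.81%. No paired analysis was possible because neither label carries a replicate number, and with 1 library in each group none could be left out. Depth is unknown, so a gene without a summit, such as *AOC3* or *AOC4*, is one where none was called in this library, which does not show that MBD9 is absent there.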
